A study of Mus musculus with 4 samples.

Results

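A set of 10 immediate early genes was followed in brain RNA of mouse embryos labelled as macroH2A knockout (KO) or wild type (WT): Fos, Jun, Junb, Egr1, Ier2, Dusp1, Nr4a1, Atf3, Klf4 and Zfp36. They were taken by symbol, and all 10 were found among the 19150 genes listed in both deposited tables. Below, values of a genotype are given in the order KO2, KO4 and WT6, WT8. The study sequenced RNA from brains of C57BL/6 embryos at stage E13.5, with 2 knockout libraries (KO2 and KO4) and 2 wild-type libraries (WT6 and WT8). The labels give the genotype only as KO or WT. They do not name the macroH2A gene that was deleted, the allele, any Cre driver or whether brains were pooled. MacroH2A is a histone H2A variant with a large extra domain, and the comparison asks which transcripts differ between brains of the KO and WT labels.

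Immediate early genes are switched on within minutes of a stimulus (growth factors, neuronal activity, stress or tissue handling) without new protein synthesis. Signals through the MAP kinases and through calcium and cAMP reach serum response factor with its partners and CREB, which already sit at these promoters. Most of the products are transcription factors, such as the AP-1 subunits, EGR1 and NR4A1, while others end the response, such as the MAP kinase phosphatase DUSP1 and the mRNA-destabilising protein ZFP36. In neurons Fos, Egr1 and Nr4a1 are used as marks of recent activity. In progenitors and vessels the same genes respond to growth factors.

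The 4 libraries held between 16470090 and 18136745 reads each. H2afy, which encodes macroH2A1, had 1368 and 1267 reads in the KO and 5538 and 5593 in the WT libraries, so that the KO held 0.214 times the WT level (log2 fold change -2.22, SE 0.10, edgeR adjusted p = 0.00167), the direction the labels give. H2afy was the 1 gene among 15708 tested that edgeR called at an adjusted p under 0.05, a share of 0.00637%. Neural marker lists were abundant in every library, with 6 neuron genes summing to between 5909 and 6349 CPM (reads relative to library size, scaled here by edgeR's TMM factors) and 6 radial glia genes to between 1938 and 2244. Whether the brains came from separate litters is not in the labels. The p-values thus cover only the spread among these 4 samples, part of which may be technical.

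Over the 4 libraries together, edgeR, DESeq2 and limma-voom called none of the 10 immediate early genes different between KO and WT. The edgeR quasi-likelihood test called 0 of the 9 that had enough reads, with a smallest adjusted p of 0.743, beside 0.00637% of all genes. DESeq2 called 0 members and 0.0209% of genes, limma-voom 0 members and 0.00637%. The count of members stayed at 0 with the deposited pair as a term (0.0127% of genes) and without WT8 (0.636%). Junb alone had an unadjusted p under 0.05 (0.00929), a mark that 4.7% of all tested genes carried. Of the 9 tested, 3 had a log2 fold change above 0 and 6 below, with a median of -0.13 beside -0.01 over all tested genes. Both KO libraries lay on one side of both WT libraries for 4 of the 9 (Klf4 and Dusp1 above, Junb and Nr4a1 below). Over all tested genes 39.4% did so, 20.1% with KO above and 19.4% with KO below, so the members' share is near the background.

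Levels within the set differed far more than genotypes did. On a scale of CPM per kilobase of exon (RPKM), Jun stood highest at a mean of 31.4 over the 4 libraries, followed by Ier2 at 25.1 and Dusp1 at 19.3. A middle group held Junb at 3.95, Nr4a1 at 3.17 and Zfp36 at 3.02. Klf4 followed at 1.11 and Egr1 at 0.573, and Fos at 0.297 and Atf3 at 0.226 were lowest. In that order the ranges over libraries overlapped between the neighbours Jun and Ier2, Junb and Nr4a1, Nr4a1 and Zfp36, and Fos and Atf3, and did not overlap between the other neighbours. Jun exceeded 87.9% of all tested genes and Fos 6.64%, so that the set spanned most of the range of brain transcripts.

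**Figure D1:**
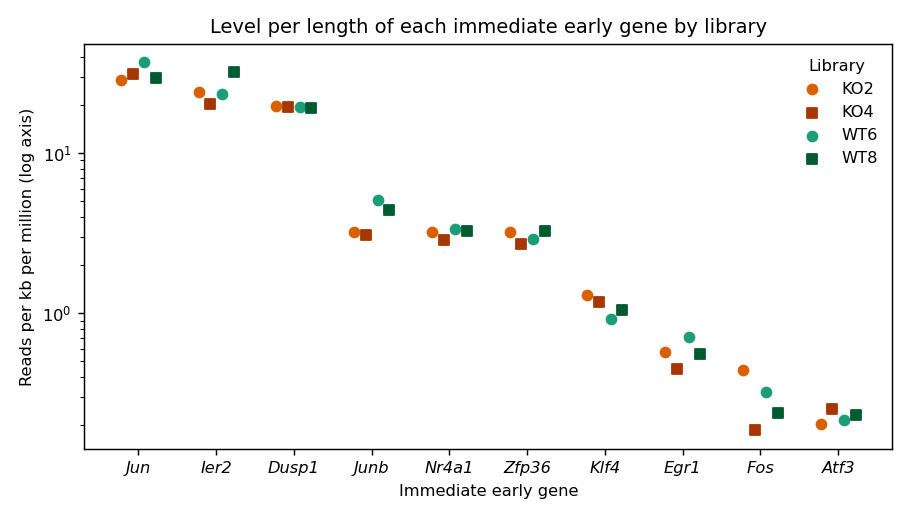
Level per length (RPKM, log axis) of the 10 immediate early genes, with 1 point per library and the genes ordered by their mean. Jun, Ier2 and Dusp1 lie between 19.0 and 36.8, while Fos and Atf3 lie between 0.186 and 0.441, and the libraries of both genotypes sit together for most genes.

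The promoters of 8 members, all but Egr1 and Ier2, are in the RefSeq table (GRCm38.p6). Shown are 4: Fos with few reads, Dusp1 nearly level over the libraries, Junb lowest in KO relative to WT, and Zfp36. Of the 8, Zfp36 alone had a CArG box in the window searched, 250 bases before to 50 after the start. Sites further away were not searched, so the other members may hold CArG boxes there. Capitals mark the cAMP response half-site TGACG on either strand, the TATAAA box on the sense strand and the CArG box bound by serum response factor. Each run holds 220 bases before and 30 after the RefSeq start, written along the gene's strand.
Fos (chr12:85473670-85473919, plus strand): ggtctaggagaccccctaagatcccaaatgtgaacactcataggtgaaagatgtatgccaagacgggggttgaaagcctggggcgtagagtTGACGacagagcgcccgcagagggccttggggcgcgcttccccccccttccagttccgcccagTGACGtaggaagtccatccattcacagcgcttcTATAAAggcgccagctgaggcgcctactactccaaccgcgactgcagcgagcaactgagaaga
Junb (chr8:84978719-84978968, minus strand): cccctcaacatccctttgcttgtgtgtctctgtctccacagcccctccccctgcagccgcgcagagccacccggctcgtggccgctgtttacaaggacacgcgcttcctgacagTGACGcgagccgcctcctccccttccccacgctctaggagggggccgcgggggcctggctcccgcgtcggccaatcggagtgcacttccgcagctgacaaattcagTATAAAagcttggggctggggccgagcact
Dusp1 (chr17:26508443-26508692, minus strand): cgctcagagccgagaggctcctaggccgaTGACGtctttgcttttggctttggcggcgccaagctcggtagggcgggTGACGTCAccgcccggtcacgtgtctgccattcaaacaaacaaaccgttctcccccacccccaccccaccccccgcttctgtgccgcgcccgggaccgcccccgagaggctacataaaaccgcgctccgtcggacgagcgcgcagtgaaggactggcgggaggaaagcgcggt
Zfp36 (chr7:28379199-28379448, minus strand): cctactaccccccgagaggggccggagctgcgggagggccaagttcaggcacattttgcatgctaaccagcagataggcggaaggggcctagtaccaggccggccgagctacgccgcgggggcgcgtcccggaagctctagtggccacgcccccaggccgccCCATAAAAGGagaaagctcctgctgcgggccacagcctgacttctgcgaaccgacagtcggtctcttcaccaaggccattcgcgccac
Fos has TGACG at -129 and -66 and TATAAA at -33, counted from the RefSeq start at +1. Junb has TGACG at -106, and its TATAAA begins at +1 of the RefSeq start, which lies 30 bases before the start in the deposited table. Dusp1 has TGACG at -191 and the full palindrome TGACGTCA at -143, which holds the half-site on both strands. In Zfp36 the CArG box begins at -58, and the RefSeq start lies inside the gene as deposited.

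Across windows of 300 bases (250 before to 50 after the start, both strands unless stated), TGACG was found in 6 of the 8 members and in 20.8% of the 32851 promoters in the table. TGACGTCA was found in 1 member, Dusp1, and in 1.79% of promoters, and the CArG box in 1 member, Zfp36, and in 1.63%. The EGR motif GCGNGGGCG was found in Klf4, Nr4a1 and Zfp36 and in 5.55% of promoters. The AP-1 motif in the form TGANTCA was found in 0 members and in 7.81% of promoters. Variants of that form were not searched, so the 0 does not cover them. TATAAA on the sense strand was found in Fos and Junb and in 8.32%. Members' windows were between 58.7% and 74.3% G or C, against a median of 52.7% over the table. The half-site stood both in Dusp1, at 19.3 RPKM, and in Fos, at 0.297, so its presence did not sort the members by level here. Matches are letters in a window, and the files used here do not measure binding.

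The other end of some of these transcripts carries AU-rich elements, the type of site that ZFP36 binds. TATTTAT was found in the last 400 bases of the 3' UTR (longest coding transcript, GENCODE M21 on GRCm38) of 5 of the 10 members (Fos, Jun, Dusp1, Atf3 and Zfp36) and of 13.2% of 10062 tested coding genes with a 3' UTR of at least that length. The shorter ATTTA was found in 9 of 10, all but Ier2, and in 52.3% of those genes. The sites below show the heptamer in capitals, with 11 bases on either side, for Fos with few reads, the abundant Jun, Dusp1 and Zfp36 itself.
Fos site 1 (chr12:85477103-85477131, plus strand): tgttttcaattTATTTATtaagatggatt
Fos site 2 (chr12:85477127-85477155, plus strand): ggattctcagaTATTTATatttttatttt
Jun site 1 (chr4:95049079-95049107, minus strand): ttgcttgtgcaTATTTATaatagcgttcg
Dusp1 site 2 (chr17:26505870-26505898, minus strand): gtttttaccttTATTTATttttgtgtagg
Zfp36 site 2 (chr7:28376951-28376979, minus strand): tatgacgacttTATTTATtgtattaagat
Over the whole 3' UTR, Dusp1 and Zfp36 hold 3 such sites each, Fos 2, and Jun and Atf3 1 each. Site 1 of Dusp1 starts at base 104 of 690 and so lies outside the last 400. Both the highest and the lowest members per length, Jun and Atf3, are among those with the heptamer. Junb has none, with 2 copies of ATTTA. Members also tended to have few exons. The largest exon count of any annotated transcript had a median of 3.5 for the members, against 9 for the tested coding genes. Nr4a1 had 8. Not all members were short in span, as Dusp1 (56539 bases in M21) and Atf3 (47744) exceeded the median of 25196 bases of the tested coding genes.

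Fos, the classic partner of Jun in the AP-1 dimer, had very few reads. It had 19 and 8 reads (1.04 and 0.437 CPM) in the KO and 13 and 9 reads (0.756 and 0.564 CPM) in the WT libraries. KO2 was the highest and KO4 the lowest library, so the genotypes overlapped. Its log2 fold change was 0.15 (SE 0.55, adjusted p = 0.946 in edgeR) with a 95% interval from -1.16 to 1.47, so a difference was not detectable at this depth. Atf3, a stress-induced AP-1 partner, had 8 and 10 reads in the KO and 8 and 8 in the WT libraries and did not pass the filter on low counts. Without that filter its log2 fold change was 0.02 (edgeR adjusted p = 0.991). Fos lies on chromosome 12 (85473890 to 85477273, plus strand) and Atf3 on chromosome 1 (191170296 to 191218039, minus strand), both on GRCm38.

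Jun, the subunit that binds DNA as a homodimer or with a Fos protein, was well expressed in all brains. Its level was 90.9 and 99.4 CPM in the KO and 117 and 93.3 CPM in the WT libraries. WT6 stood above the others, and WT8 lay between the 2 KO libraries. KO averaged 95.2 ± 6.04 CPM and WT 105 ± 17.1 (mean ± SD, n = 2 libraries each), which gave -0.15 as log2 fold change (SE 0.12, adjusted p = 0.761 in edgeR). Reads of Jun exceeded those of Fos between 64.7 and 168 times per unit of length, depending on the library. Fos had only 8 to 19 reads per library, so its counting error enters this range. Jun is a gene of 1 exon on chromosome 4 (95049034 to 95052222, minus strand), and 232 of its exon bases are shared with the antisense gene Junos, which had 25 to 40 reads per library.

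Junb, an AP-1 subunit that acts in part against Jun, was the member with the lowest KO level relative to WT. The KO libraries held 135 and 130 of its reads (7.37 and 7.10 CPM) and the WT libraries 202 and 162 (11.7 and 10.1 CPM). Both KO libraries lay below both WT libraries, and the KO libraries were close to each other. KO averaged 7.23 ± 0.191 CPM and WT 10.9 ± 1.13 (mean ± SD, n = 2 each), so that KO held 0.661 times the WT level, a log2 fold change of -0.60 (SE 0.17, 95% interval -0.99 to -0.20). By unadjusted p Junb ranked at place 43 of the 15708 genes, yet the edgeR adjusted p was 0.743. Over the alternatives the lowest adjusted p was 0.177, without WT8, so the difference passed under none of these fits over all libraries.

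Ratios of single libraries, with counting error alone, use the same Junb reads and so are no separate evidence. For KO2 over WT6 the ratio was 0.627 (exact 95% interval 0.501 to 0.784), and for KO4 over WT8 it was 0.699 (0.551 to 0.886). Between libraries of 1 genotype it was 0.864 in WT8 over WT6 (0.698 to 1.07) and 0.963 in KO4 over KO2 (0.751 to 1.23). Only the ratios across genotypes had an interval off 1, but counting intervals leave out the spread between brains. They were off 1 for 30.4% of all tested genes in KO2 over WT6 and for 48.1% in KO4 over WT8. Within genotypes the shares were 40.7% in WT8 over WT6 and 26.8% in KO4 over KO2. The authors' deposited table gives Junb log2 fold changes of -0.66 for the first pair (KO2, WT6), with an adjusted p of 0.000394, and -0.45 for the second (KO4, WT8), with 0.0145. Those p-values each compare 1 library with 1 library, not the genotypes. Junb lies on chromosome 8 (84974484 to 84978718, minus strand). A second transcript, annotated without a coding region, shares 173 exon bases with Prdx2 on the other strand, which had 14061 to 16037 reads per library, and the exons of the coding transcript share 0. Use of strand in counting was not given in the sources used here, so the Junb count is uncertain to that extent.

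Junb is also expressed in microglia and vessels, so their markers are given beside it. The 10 microglia markers summed to 47.5 and 41.5 CPM in the KO and 47.6 and 54.8 CPM in the WT libraries, 7 of the 10 had a log2 fold change below 0, and their median was -0.28. Endothelial markers, also 7 of 10 below 0, summed to 162 and 154 CPM in the KO and to 159 and 179 CPM in the WT libraries. All 7 mural and meningeal markers were below 0, at a median of -0.11. They summed to 78.4 and 70.8 CPM in the KO and to 72.2 and 85.3 CPM in the WT libraries. Of all 15708 tested genes, 8033 were below 0. None of these marker lists had a member that edgeR called, and no measured marker was at 0 in a library. Their part in the Junb values was not tested, and in a bulk sample fewer cells of a type and less RNA per cell cannot be told apart.

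Egr1, Nr4a1 and Klf4 encode transcription factors of other families and lie on chromosomes 18 (34859823 to 34864984, plus strand), 15 (101266846 to 101274792, plus strand) and 4 (55527143 to 55532466, minus strand). Egr1, a zinc finger factor of the growth factor and synaptic response, had 2.56 and 2.02 CPM in the KO and 3.20 and 2.50 CPM in the WT libraries. KO2 lay above WT8, so the genotypes overlapped, and the log2 fold change was -0.32 (SE 0.29, adjusted p = 0.776 in edgeR). It was -0.13 without WT6, -0.16 without KO4, -0.49 without KO2 and -0.47 without WT8. Nr4a1, an orphan nuclear receptor also known as Nur77, had 10.6 and 9.44 CPM in the KO and 11.2 and 10.7 CPM in the WT libraries. Both KO libraries lay just below both WT libraries, and WT8 exceeded KO2 by less than KO2 exceeded KO4. The fitted log2 difference was -0.13 (SE 0.15, adjusted p = 0.822 in edgeR), and it was -0.048 without KO4 and -0.20 without KO2. Klf4, a Krüppel-like factor of progenitors and endothelium, had 3.98 and 3.60 CPM in the KO and 2.79 and 3.19 CPM in the WT libraries. Both KO libraries were above both WT libraries, on 48 to 73 reads per library. Its log2 fold change of 0.34 (SE 0.24, 95% interval -0.22 to 0.91, edgeR adjusted p = 0.743) had the largest positive value of the set.

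Ier2, which encodes a short-lived nuclear protein, varied more between brains of the same genotype than most members. It stood at 36.7 and 31.0 CPM in the KO and at 35.7 and 49.2 CPM in the WT libraries, and lies on chromosome 8 (84661331 to 84662852, minus strand). WT8 was the high library and KO4 the low one, while KO2 and WT6 were nearly equal. The ratio was 0.631 in KO4 over WT8 (exact 95% counting interval 0.565 to 0.703) but 1.03 in KO2 over WT6 (0.919 to 1.15), and WT8 over WT6 alone gave 1.38. Over both genotypes the log2 fold change was -0.33 (SE 0.17, an edgeR adjusted p = 0.743), and it was -0.073 without WT8, -0.21 without KO4 and -0.54 without WT6. WT8 was also the library with the most globin RNA: the 7 erythroid markers summed to 996 CPM there against 442 to 577 in the others. Replication-dependent histone genes summed to 488 CPM in WT8 against 356 to 366 in the others, and the 7 mural and meningeal markers to 85.3 against 70.8 to 78.4. The other cell type marker lists were highest in WT8 as well, so this was not particular to blood, histone or mural genes. Neuron markers summed to 6349 CPM in WT8 against 5909 to 6170 in the others, and radial glia markers to 2244 against 1938 to 2097. Microglia markers summed to 54.8 against 41.5 to 47.6, and endothelial markers to 179 against 154 to 162. The part of any of these in the Ier2 value was not tested.

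Dusp1 and Zfp36 encode proteins that shut the response down. Dusp1, the nuclear phosphatase that inactivates MAP kinases, was nearly level over the brains, at 52.8 and 52.2 CPM in the KO and 52.0 and 51.4 CPM in the WT libraries. Its highest library exceeded its lowest 1.03 times, the smallest spread of the set. The log2 fold change was 0.02 (SE 0.08, adjusted p = 0.945 in edgeR), and the 95% interval on the linear scale, 0.887 to 1.16 times the WT level, bounds how much a difference could have been. Zfp36, which encodes tristetraprolin, a protein that binds AU-rich elements and speeds mRNA decay, had 11.1 and 9.44 CPM in the KO and 10.1 and 11.3 CPM in the WT libraries. The genotypes overlapped, with a log2 fold change of -0.06 (SE 0.17, an edgeR adjusted p = 0.937). For Zfp36, 125 exon bases are shared with the antisense gene Gm44710. In M21, Dusp1 shares 11 exon bases with Ergic1 on the other strand, and the exons of its coding transcripts share 0. That M21 gene spans 56539 bases, far beyond Dusp1 as deposited (chromosome 17, 26505590 to 26508519), and whether the 11 lie inside the deposited gene was not tested.

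**Figure D2:**
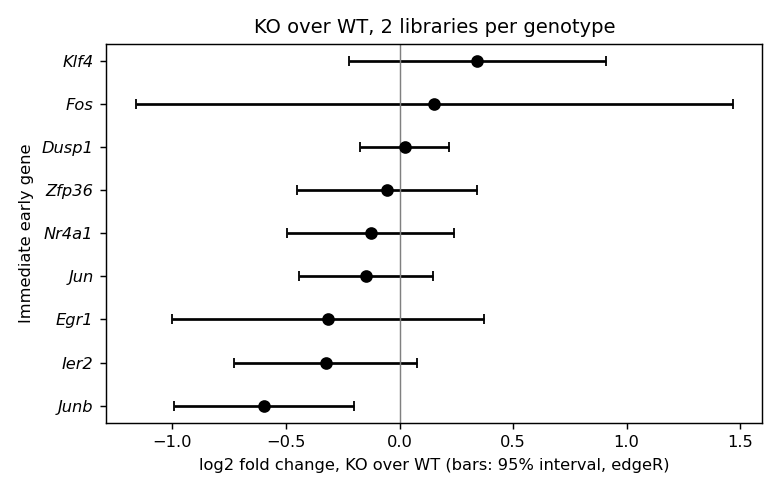
Log2 fold change of KO over WT for the 9 tested immediate early genes, with 95% intervals from the edgeR fit over 2 libraries per genotype. The interval of Junb, -0.99 to -0.20, is the one that does not reach 0, while no gene passed after adjustment, and Fos has the widest interval.

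Single libraries differed for as many members within a genotype as across genotypes. The exact counting interval of the ratio was off 1 for 2 of the 10 members in each of 4 comparisons: KO2 over WT6 (Jun and Junb), KO4 over WT8 (Junb and Ier2), WT8 over WT6 (Jun and Ier2) and KO4 over KO2 (Jun and Ier2). Over all tested genes the shares were 30.4%, 48.1%, 40.7% and 26.8% in the same order. KO4 was the lowest library for 6 of the 9 tested members and the highest for 0, beside 26.4% and 25.8% of all tested genes. The authors' deposited table gives Jun log2 fold changes of -0.36 (adjusted p = 2.44e-12) for the first pair and 0.16 (adjusted p = 0.00444) for the second. For Ier2 the authors' deposited table gives 0.05 (adjusted p = 0.572) and -0.60 (adjusted p = 3.05e-13), so the pairs differ in sign for both genes.

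**Figure D3:**
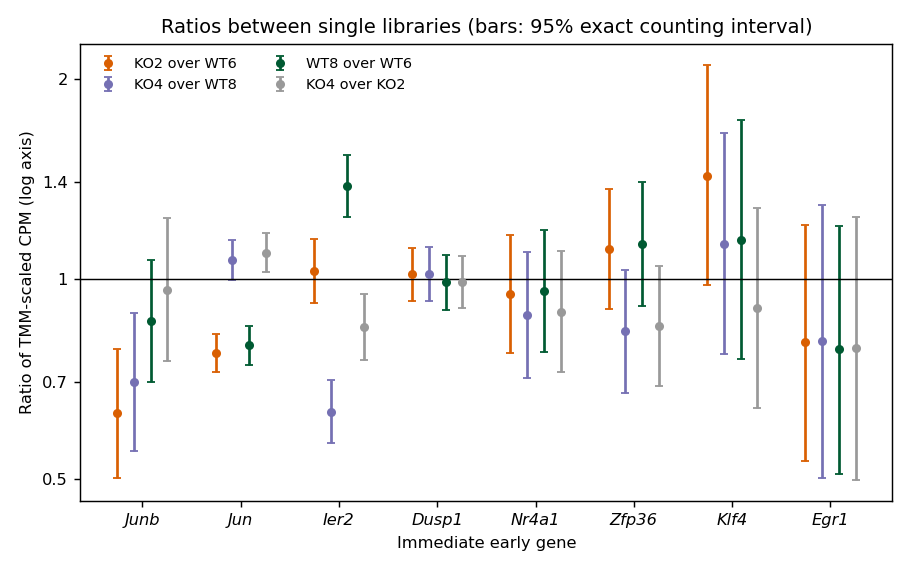
Ratios of TMM-scaled CPM between single libraries (log axis) for 8 immediate early genes, with exact 95% intervals that cover counting error only. For Junb both ratios across genotypes, 0.627 and 0.699, lie below 1, whereas Jun and Ier2 also differ between the WT libraries, and all intervals of Dusp1 hold 1.

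The Jun family outweighed the Fos family in these brains. The Fos family (Fos, Fosb, Fosl1 and Fosl2) summed to between 2.22 and 3.98 RPKM per library and the Jun family (Jun, Junb and Jund) to between 52.0 and 63.6, a ratio between 14.6 and 26.5. Of 9 tested AP-1 partners, 0 rose and 0 fell in edgeR, with a median log2 fold change of -0.15. Jund, which encodes a constitutive Jun protein, stood at -0.20 (SE 0.11), and Atf4, a factor of the amino acid and stress response, at -0.19 (SE 0.10), both with an edgeR adjusted p of 0.743. Without WT8 they stood at -0.080 and -0.071, and without WT6 at -0.31 and -0.30. Fosb had 0 reads in WT6 and 3 to 7 in the other libraries. Of 8 tested EGR, NR4A and KLF relatives, 0 passed, with a median of 0.04, and neither list had a gene with an unadjusted p under 0.05. Nr4a2, a nuclear receptor of dopaminergic and cortical neurons, had 24.6 and 24.9 CPM in the KO and 25.1 and 17.0 CPM in the WT libraries. Its log2 fold change of 0.23 rested on WT8, as it was -0.015 without that library.

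Upstream genes of the response did not pass either. Of 16 transcription factors and cofactors, 0 passed at a median of -0.04. Creb1, which encodes CREB, had 95.7 and 97.5 CPM in the KO and 83.5 and 79.2 CPM in the WT libraries, or 0.25 as log2 fold change (SE 0.08, adjusted p = 0.743 in edgeR). Ep300, a histone acetyltransferase that CREB recruits, stood at 0.24, and at 0.15 without KO4 and 0.16 without WT8. Of 23 MAP kinase cascade genes, 0 passed at a median of 0.03. An unadjusted edgeR p under 0.05 was found for 4 of them, beside 4.7% of all tested genes. Rps6ka3, which encodes the kinase RSK2, which acts below MAP kinases, stood at 0.43 (SE 0.12, adjusted p = 0.743 in edgeR). Both its KO libraries lay above both WT libraries, as for 20.1% of all tested genes. The kinase gene Braf stood at 0.25. Of 16 feedback inhibitors, 0 passed at a median of -0.08, with Spry4 at -0.53 (SE 0.28) and Dusp14 at -0.24 (SE 0.13) having the smallest p. Spry4 was at -0.30 without KO4 or without WT8 and at -0.80 without KO2, and Dusp14 at -0.099 without WT6 and -0.37 without WT8.

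Genes downstream of or parallel to the response also held no called gene. Of 20 other rapid-response genes tested, 0 passed at a median of -0.06. An unadjusted edgeR p under 0.05 was found for 2 of them, beside 4.7% of all tested genes. These were Plk2, a kinase gene induced by serum and by synaptic activity, at 0.36 (SE 0.11), and Ier5l at -0.39 (SE 0.12). Both had an edgeR adjusted p of 0.743. Ier5l was at -0.22 without WT8. Of 12 neuronal activity targets, 6 were above and 6 below 0 and 0 passed, with a median of 0.01. Inhba, which encodes an activin subunit, stood at -0.60 (SE 0.34) on 1.64 to 3.26 CPM, and the secreted peptide gene Vgf at -0.27 (SE 0.15). Inhba was at -0.18 without WT6 and -0.91 without WT8, and Vgf at -0.18 without WT8. Heat shock and stress genes, which rise with handling, had 5 of 10 above 0 and a median of 0.03, with the chaperone gene Hsp90aa1 at 0.21 (SE 0.09) and Hsph1 at 0.16, which was 0.077 without WT8 and 0.25 without WT6.

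**Figure D4:**
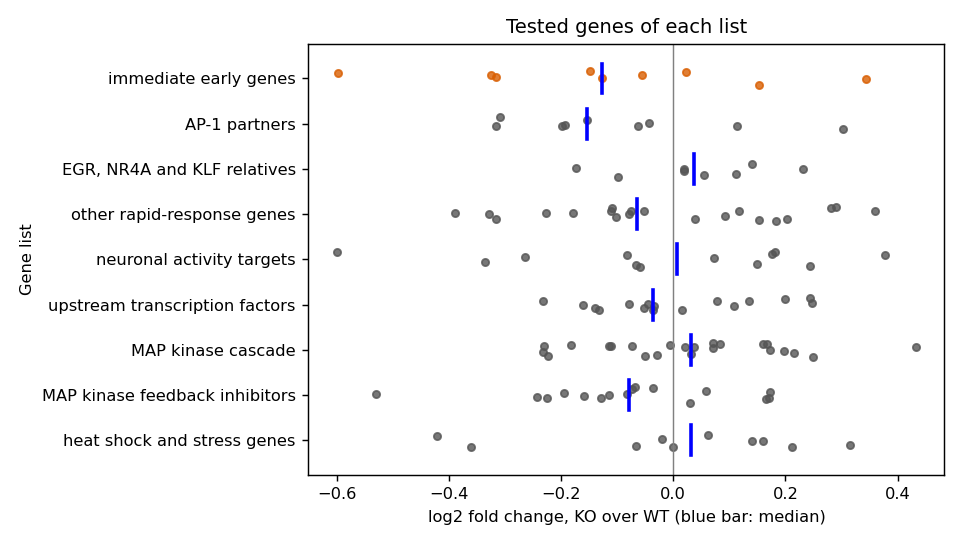
Log2 fold change of KO over WT for each tested gene of 9 lists, with the median of each list as a blue bar and the immediate early genes in orange. All medians lie between -0.15 and 0.04, and Junb at -0.60 and Inhba at -0.60 are the lowest points; points are spread vertically only to separate them.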

How the data were processed

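Total RNA of embryonic brain was sequenced in 4 libraries, and samples were grouped by the genotype in their titles. The authors deposited 2 tables, each with whole read counts per gene for 1 KO and 1 WT library, per the file headers. Their normalized value is a CPM of the same reads, as found from the values, and the deposited fold change (a ratio), its log2 and the p-values come from a test not given in the sources used here. Upstream tools, per the submitters' processing notes, were TopHat2 2.0.12, Bowtie2 2.2.3 and HTSeq 0.6.0, listed without their roles, and mm9 is listed as the build, but the positions equal GENCODE M21 on GRCm38 for 91.2% of genes, so GRCm38 is used.

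The 19150 genes present in both tables were fitted on their counts with edgeR 4.0.16 in R 4.3.3 (quasi-likelihood, TMM, filterByExpr, genotype as the only term, Benjamini-Hochberg over 15708 genes, threshold 0.05); the fit was tested on simulated data. SE is the log2 fold change over the root of F. RPKM is the TMM-scaled CPM per kilobase of M21 exon inside the deposited gene span. Ratios of single libraries carry exact binomial intervals for counting error. The members, lists and tests were chosen with earlier results of these data known. Named were all members, the 3 most abundant genes of a list or some of them, the 2 of smallest p, the 5 genes most alike in pattern and H2afy. Other genes were named after their values were seen. Alternatives were DESeq2 1.42.0, voom of limma 3.58.1, size factors or library totals, no filter or a mean of 1 CPM, a term for the deposited pair, and leaving out each library.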

Additional observations from a re-analysis of the deposited data

How the results depend on the processing

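In all 11 alternatives 0 of the 10 immediate early genes were called, but not all 10 were tested in each. Atf3 was tested only with no filter, with DESeq2, without WT6 and without WT8, and Fos was not tested at a mean of 1 CPM. The number of genes called over the whole table, 1 in the reported fit, was 2 when scaled by library total alone, 4 with DESeq2 and 2 with the deposited pair as a term. Leaving out 1 library gave 0 (without WT6) to 104 (without WT8) calls, 1 without KO2 and 2 without KO4; each such fit takes the lone library to vary like the other genotype. H2afy kept -2.29 without WT6 but lost its call (adjusted p = 0.314). Over 101 recomputed folds of the members, 6 changed sign, all without a single library: Fos at -0.58 without KO2 and -0.033 without WT8 (leave-one-out range -0.58 to 0.64), Jun at 0.027 without WT6 (-0.30 to 0.027), Atf3 at -0.030 without WT6 (-0.030 to 0.082), and Zfp36 at 0.057 without KO4 and 0.037 without WT8 (-0.17 to 0.057). Nr4a2 turned to -0.015 without WT8 (-0.015 to 0.54). The cause was not tested. Junb stayed between -0.69 and -0.49 and Klf4 between 0.25 and 0.45. No paired analysis was possible by replicate number, because the numbers in the titles differ between genotypes; the term for the deposited pair used the authors' tables instead and gave Junb -0.59. Fos and Atf3, at 8 to 19 reads per library, are limited by depth.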

Other observations

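Genes whose level followed the mean of the tested members most closely over the 4 libraries were Dkk3, Cfap74, Gm15964, Itgb1bp2 and Tmem219, with Pearson's r between 0.9951 and 0.9996 among 3663 eligible genes. With 4 libraries this is a description only. That mean weighs all tested members alike. Fos, at 8 to 19 reads per library, deviated most in KO2 (0.65) and in KO4 (-0.60, centred log2 CPM), so its counting error enters the pattern. Dkk3, which encodes a secreted Dickkopf-family protein, had 13.7 and 9.61 CPM in KO2 and KO4 and 14.1 and 13.0 CPM in WT6 and WT8, so KO4 was the low library.

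In the lists, 2 genes of the MAP kinase and AP-1 response, picked after their values were seen, were high in KO4 and WT6 and low in KO2 and WT8, whatever the genotype. The phosphatase gene Dusp4 had 47.9 and 48.2 CPM in KO4 and WT6 and 29.6 and 20.4 CPM in KO2 and WT8. The AP-1 gene Fosl1 had 5.08, 4.59, 3.33 and 2.19 CPM in that order. Jun was also highest in WT6, at 117 CPM, and next in KO4, at 99.4. Most members did not share the pattern, as KO4 was the lowest library for 6 of the 9 tested and the highest for 0.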
